A study of Mus musculus with 8 samples.

Results

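Before a cell divides it copies its DNA from many start sites, and each site must first be licensed. In mammals the origin recognition complex, ORC, is built from the products of Orc1 to Orc6 and sits at origins, where CDC6 and CDT1 join it and load the ring-shaped MCM helicase. Geminin, the product of Gmnn, binds CDT1 and blocks a further round of loading, and DBF4 switches on the kinase CDC7, which triggers the loaded helicase to fire. KAT7, a histone acetyltransferase, is also called HBO1, for histone acetyltransferase binding to ORC1, and is known to bind CDT1 and to acetylate histone H4 at origins. The 10 genes Orc1 to Orc6, Cdc6, Cdt1, Gmnn and Dbf4 were described here, of 27179 gene identifiers in the count table. They were picked by symbol, and all 10 had a row and passed the filter on low counts.

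RNA was read from neurosphere cultures, floating clusters of dividing neural stem and progenitor cells, each grown from a single C57BL/6 mouse fetus at E14.5 (embryonic age in days) and kept in proliferation medium. The 4 Kat7 deleted cultures came from Kat7lox/lox NesCreT/+ fetuses and the 4 Kat7 intact cultures from Kat7+/+ NesCreT/+ fetuses, so both groups carried the Nestin-Cre transgene and a group without Cre was not analysed here. Nestin drives Cre in neural precursors. The fetuses came from 6 litters, 3 for each genotype with 0 shared, and effects of litter and of genotype cannot be told apart.

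Libraries held 10687817 to 22444359 counts, and 1 read was worth 0.0436 to 0.0918 CPM (read counts of a gene relative to the whole library, with library sizes scaled by the TMM method). Kat7 itself ranged over 77.1 to 92.1 CPM with Kat7 intact, against 26.4, 0.367, 13.9 and 0.087 CPM in the deleted cultures 1 to 4, so replicates 1 and 3 still held Kat7 reads (edgeR log2 fold change -3.02 ± 1.10, standard error, adjusted p = 0.128). Kat7 was called by limma-voom (-4.92, adjusted p = 0.0426), with sample weights (-4.10, adjusted p = 0.0347) and without deleted replicates 1 and 3 (-8.51, adjusted p = 0.000113). Transcripts of the mitochondrial genome made up 18.9% to 23.5% of an intact library, and 29.9%, 18.9%, 17.1% and 34.4% of deleted libraries 1 to 4. Summed over 14 neural stem cell markers, 0 of them at 0 throughout, the level was 6152 to 7148 CPM with Kat7 intact, and the deleted cultures 1 to 4 had 7492, 4242, 7047 and 6190 CPM, with 1 marker, Cdh2, called lower (log2 fold change -0.72, edgeR adjusted p = 0.0351). Of the sum in deleted replicate 1, Slc1a3 made up 3037 CPM, against 543 to 1279 CPM with Kat7 intact. The defining markers Nes and Sox2 were read in all 8 libraries. In deleted cultures 1 to 4 Nes stood at 831, 1217, 1869 and 2040 CPM, against an intact range of 1284 to 1894 CPM. Sox2 stood at 272, 145, 202 and 142 CPM there, against an intact range of 199 to 243 CPM. So both lay under the intact range in replicate 2, and in replicates 1 and 4 they left it in opposite directions. Markers of other cells differed as well. The sum of 10 astrocyte markers was 327 to 533 CPM with Kat7 intact, against 4123, 521, 1647 and 1427 CPM without it, with 5 called higher and 0 at 0 throughout. Much of it was Sparcl1, at 183 to 309 CPM with Kat7 intact and 3096, 295, 1399 and 1085 CPM without it. For 10 mesenchymal markers the sum was 3.03 to 4.49 CPM against 5.71, 783, 22.6 and 242 CPM, with 2 of 3 tested called higher and 0 at 0 throughout. Of 11 neuronal markers 8 were tested and 3 called lower, of 10 oligodendrocyte markers 7 and 2, and of 7 endothelial markers 3 and 1. In each of these lists 0 were called higher and 2 tested genes were fitted above 0. Neuronal sums were 1048 to 1094 CPM with Kat7 intact, against 889, 1226, 961 and 792 CPM. They were mostly Map2, at 1010 to 1056 CPM with Kat7 intact and 871, 1106, 944.5 and 778 CPM without it. In deleted replicate 2 Dcx added 101 CPM. So these sums say little of the other neuronal genes. Oligodendrocyte sums, mostly Olig1 and Olig2, were 1367 to 1728 CPM against 1696, 450, 1619 and 976 CPM. Endothelial sums were 3.84 to 9.09 CPM against 2.66, 21.6, 4.06 and 4.78 CPM. The summed microglial (8 genes, C1qa and C1qb at 0) and erythroid (4 genes, Hba-a1 and Hbb-bs at 0) markers stayed at or under 0.609 and 1.65 CPM. These marker calls depended on the fit. With litter as a random block the calls were 3 astrocyte, 0 mesenchymal, 2 neuronal, 1 oligodendrocyte, 1 endothelial and 0 stem cell genes, and with littermates summed 2, 0, 0, 1, 1 and 0. Over 22 alternatives the mesenchymal count was 0 in 11, the neuronal count ran from 0 to 7, the oligodendrocyte count from 0 to 2 and the astrocyte count from 1 to 7. The part of these differences in the results below was not tested. In bulk RNA, fewer cells in cycle and less RNA per cell cannot be told apart.

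Stretches of DNA before the RefSeq starts of 3 of the genes are shown because they hold the sequence word linked to E2F. This factor family is known to switch on licensing genes as cells enter S phase. The promoter windows are from RefSeq (GRCm38.p6), cover the 250 bases before each annotated start, and were available for Orc1 to Orc6, Cdc6, Cdt1 and Dbf4, not Gmnn. The words searched on both strands were TTTCGCGC, TTTGGCGC, TTTCCCGC and TTTGCCGC. At least 1 was found in the windows of Orc1, Orc3 and Cdc6, 3 of 9 genes, and in those of 583 of 27025 genes in the table (2.16%). The CCAAT box, searched as CCAAT on both strands, was in 4 of the 9 (Orc1, Orc2, Orc4 and Orc6) and in 37.5% of all genes. The cell cycle genes homology region, searched as TTTGAA and TTCGAA, was in 0 of the 9 and in 19.5% of all genes. The lower-case runs below have the E2F word in capitals, written 5′ to 3′ along the gene, and in the longer Orc1 stretch the capitals also mark both CCAAT boxes.
Orc1, chr4:108579323-108579434, plus strand: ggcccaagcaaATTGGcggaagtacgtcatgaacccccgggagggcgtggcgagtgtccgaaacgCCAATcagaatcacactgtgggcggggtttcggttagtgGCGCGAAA
Orc3, chr4:34614965-34614994, minus strand: ccatgcctcccTTTCCCGCacgccccgcct
Cdc6, chr11:98908002-98908031, plus strand: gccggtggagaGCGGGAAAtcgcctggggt
The Orc1 word ends 20 bases before the RefSeq start and the Orc3 word 34 bases before it, while that of Cdc6 ends 131 bases before it. Words on the opposite strand read as their reverse complement here, as in Orc1 and Cdc6. The Orc3 stretch also lies in an exon of the neighbouring gene Rars2, and 26 bases of the Orc1 stretch lie in annotated exons of Orc1 or Prpf38a. In the GENCODE M21 annotation Orc1 starts at 108579423 and Cdc6 at 98907801, so the words of both lie inside the annotated genes. Of the 30 bases around the Orc1 word 23 lie in an Orc1 exon, and of the Cdc6 stretch 0 are exonic. A match describes letters only.

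None of the 10 licensing genes passed the test of Kat7 deleted against intact cultures, which asked whether transcripts of the origin machinery change when an acetyltransferase tied to ORC is lost. The edgeR quasi-likelihood test at an adjusted p under 0.05 called 0 of the 10, against 7.90% of the 13498 genes tested (2.80% called lower and 5.10% called higher). For so few genes a count of 0 lies near that share, so it does not set the 10 apart from other genes. Over all genes 688 were called higher and 378 lower, which became 309 and 364 with scaling by library totals alone (median log2 fold change of all genes -0.09) and 528 and 472 with totals without mitochondrial transcripts. DESeq2 also called 0, against 16.3% of all genes. In the edgeR test 3 of the 10 had an unadjusted p under 0.05, all on the lower side, against 10.4% of all genes on that side. All 10 fitted log2 fold changes (deleted minus intact) lay below 0, from -0.43 for Orc1 to -0.11 for Gmnn, with a median of -0.26, while 45.0% of all tested genes lay below 0 and their median was 0.05. All 4 deleted libraries were below all 4 intact ones for Orc1, Orc5 and Orc6, 3 of 10, against 9.21% of all genes. The 10 genes were read in the same 8 libraries, so these counts are not 10 separate observations.

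**Figure D1:**
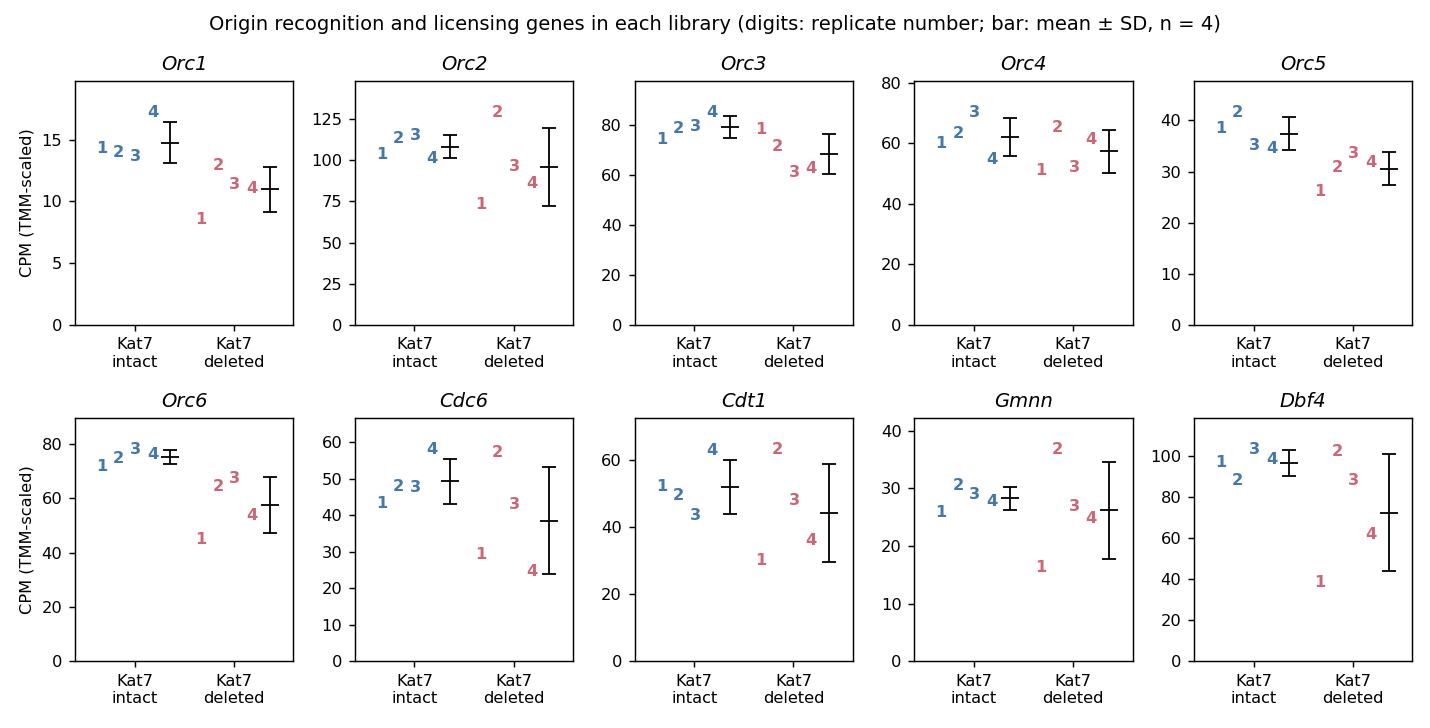
Each panel gives 1 gene's level in CPM (y axis) by genotype (x axis); digits are replicate numbers and bars the mean ± SD of 4 libraries. Deleted replicate 1 is the lowest library in 8 of the 10 panels, and deleted replicate 2 lies in or above the intact range for Orc2, Orc4, Cdc6, Cdt1, Gmnn and Dbf4.

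Orc1 (Entrez 18392, chromosome 4, 108579423 to 108614833 in GRCm38, from GENCODE M21 as for the genes below) encodes the largest ORC subunit, an ATPase whose amount is known to follow the cell cycle. Its level was 14.3, 13.99, 13.6 and 17.2 CPM in intact replicates 1 to 4, and the deleted cultures 1 to 4 had 8.56, 12.9, 11.4 and 11.04 CPM. The highest deleted library lay just under the lowest intact one, so the groups stood apart by a small gap. Means were 14.8 ± 1.63 and 10.98 ± 1.81 CPM (SD, n = 4), and the log2 fold change of -0.43 had a 95% interval of -0.81 to -0.05 (edgeR adjusted p = 0.151).

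Orc6 (Entrez 56452, chromosome 8, 85299632 to 85308278), the smallest subunit, which is loosely held by the rest of the complex in mammals, was even among the intact cultures. Its level was 71.6, 74.6, 77.9 and 75.9 CPM there, against 44.8, 64.3, 67.1 and 53.5 CPM without Kat7. Deleted replicates 1 and 4 were the low ones, and no deleted library reached the intact range. The log2 fold change was -0.39 (95% interval -0.70 to -0.07; edgeR adjusted p = 0.124, the smallest of the 10 genes). Orc5 (Entrez 26429, chromosome 5, 22486485 to 22550429), a core ATPase-fold subunit, stood at 38.3, 41.5, 35.1 and 34.5 CPM against 26.1, 30.8, 33.6 and 31.8 CPM. The groups did not overlap, though deleted replicate 3 and intact replicate 4 were close. Its log2 fold change was -0.29 (-0.57 to -0.01; edgeR adjusted p = 0.177).

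The other core subunits overlapped between genotypes. Orc2 (Entrez 18393, chromosome 1) ranged over 101 to 115 CPM with Kat7 intact, and the deleted cultures 1 to 4 had 73.0, 128.9, 96.2 and 86.2 CPM, on both sides of the intact range. Orc3 (Entrez 50793, chromosome 4) went the other way between libraries, with 78.2 and 71.5 CPM in deleted replicates 1 and 2 and 61.1 and 62.8 CPM in replicates 3 and 4, against 74.3 to 85.1 CPM in intact ones. It was the single member that stayed inside the intact range in deleted replicate 1. Orc4 (Entrez 26428, chromosome 2), an ATPase subunit, stood at 54.7 to 69.99 CPM and 50.8 to 65.3 CPM. Log2 fold changes were -0.17 (95% interval -0.56 to 0.22) for Orc2, -0.22 (-0.48 to 0.04) for Orc3 and -0.11 (-0.41 to 0.18) for Orc4, with edgeR adjusted p of 0.558, 0.266 and 0.607. None of the 6 ORC intervals reached a halving, a log2 fold change of -1, the lowest bound being -0.81 for Orc1.

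**Figure D2:**
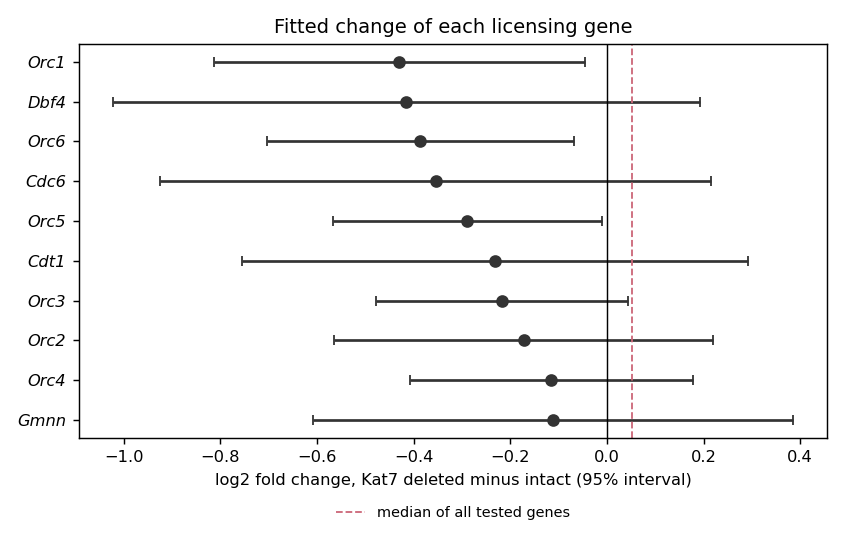
Points give the edgeR log2 fold change (x axis) of each gene (y axis) and bars its unadjusted 95% interval; the dashed line is the median of all tested genes, 0.05. All points lie below 0, and the intervals of Orc1, Orc5 and Orc6 alone among the 10 end below it.

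The loading factors were uneven among the deleted cultures, with replicates 1 and 4 low. Cdc6 (Entrez 23834, chromosome 11, 98907801 to 98923940), the ATPase that helps ORC load the helicase, stood at 43.3, 48.0, 47.7 and 58.0 CPM in intact replicates 1 to 4. The deleted cultures 1 to 4 had 29.4, 57.1, 43.1 and 24.7 CPM. Replicates 1 and 4 were well under the intact range, replicate 3 was at its lower edge and replicate 2 near its top. Cdt1 (Entrez 67177, chromosome 8, 122568015 to 122573554), which carries the helicase to origins, had 30.1, 63.0, 47.8 and 36 CPM against 43.2 to 62.7 CPM with Kat7 intact, so replicates 1 and 4 were again the low ones. Log2 fold changes were -0.35 (95% interval -0.92 to 0.22) for Cdc6 and -0.23 (-0.75 to 0.29) for Cdt1, and edgeR's adjusted p was 0.402 and 0.558. Leaving out replicates 1 and 4 of the deleted group gave -0.0014 for Cdc6 and 0.07 for Cdt1.

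Gmnn (Entrez 57441, chromosome 13, 24751845 to 24761923), the inhibitor, stood at 25.9, 30.4, 28.9 and 27.7 CPM with Kat7 intact, against 16.4, 36.7, 26.9 and 24.8 CPM without it. Deleted replicate 1 lay lowest and replicate 2 highest of all 8 libraries. The log2 fold change of -0.11 (95% interval -0.61 to 0.39; edgeR adjusted p = 0.785) turned to 0.06 without deleted replicate 1, so its sign rested on that library. The ratio of Cdt1 to Gmnn reads, factor over inhibitor, does not depend on library scaling. It was 2.01, 1.62, 1.49 and 2.26 in intact replicates 1 to 4 and 1.84, 1.71, 1.78 and 1.45 in deleted ones. The ranges overlapped, the mean log2 ratio differing by -0.11 (exact two-sided permutation test, p = 0.543, also 0.543 adjusted over 3 ratios).

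Dbf4 (Entrez 27214, chromosome 5, 8396973 to 8422716), the activating subunit of the CDC7 kinase, varied most among the deleted cultures. Its level was 97.1, 88.3, 103.3 and 98.3 CPM in intact replicates 1 to 4, against 38.3, 102.4, 88.0 and 61.7 CPM without Kat7. Deleted replicate 1 lay 1.33 log2 units under the intact mean, the lowest value of any member in any library, while replicate 2 lay inside the intact range. The log2 fold change was -0.42 (95% interval -1.02 to 0.19; edgeR adjusted p = 0.355). It was -0.20 without deleted replicate 1 and -0.047 without deleted replicates 1 and 4. Its kinase gene Cdc7 stood at 46.3 to 57.3 CPM with Kat7 intact, against 32.7, 63.4, 47.6 and 59.7 CPM without it, a log2 fold change of 0.00 (-0.45 to 0.45; edgeR adjusted p = 0.999) whose sign changed with the scaling.

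Reads of Dbf4 over Cdc7 gave ratios of 1.94, 1.90, 2.09 and 1.72 in intact replicates 1 to 4 and of 1.17, 1.61, 1.85 and 1.03 in deleted ones. Deleted replicates 1 and 4 were far under the intact range, replicate 2 was a little under it and replicate 3 was inside it. The mean log2 ratio was 0.93 ± 0.12 in intact and 0.46 ± 0.39 in deleted cultures (SD, n = 4), a difference of -0.47 with an exact two-sided permutation p of 0.0571, 0.171 adjusted over the 3 ratios. The smallest p that 70 arrangements of 4 against 4 allow is 0.0286. Without deleted replicates 1 and 4 the difference was -0.14. For Orc1 over Orc2, a subunit known in human cells to follow the cycle over one known to be steady, the difference was -0.23 (exact permutation p = 0.143, adjusted 0.214), the ratios being 0.118 to 0.1703 in intact and 0.101 to 0.129 in deleted libraries. Without intact replicate 4, which had the highest ratio, the difference was -0.13.

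**Figure D3:**
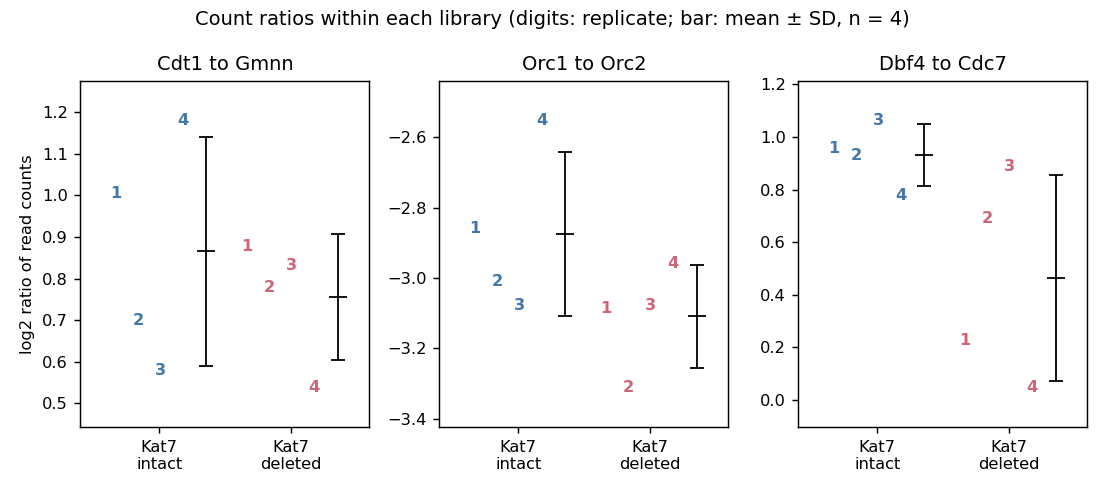
The y axis is the log2 ratio of read counts of a gene pair within each library, by genotype on the x axis; digits are replicate numbers and bars the mean ± SD of 4 libraries, and the axes do not start at 0. The Cdt1 to Gmnn ranges overlap throughout. For Dbf4 to Cdc7 deleted replicates 1, 2 and 4 lie at 0.23, 0.69 and 0.05, under all intact libraries (0.78 to 1.06).

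Levels can be compared between genes only per length. On the RPKM scale (CPM per kilobase), computed from the deposited gene lengths, intact means ran from 45.4 ± 1.58 for Orc6 to 4.90 ± 0.54 for Orc1 (SD, n = 4). Between them came Dbf4 at 39.6, Orc2 at 32.1, Gmnn at 28.9, Cdt1 at 23.7, Orc5 at 18.1, Orc3 at 12.6, Orc4 at 12.5 and Cdc6 at 10.5 RPKM. The intact ranges of neighbours overlapped from Orc2 to Gmnn, Gmnn to Cdt1, Cdt1 to Orc5, Orc3 to Orc4 and Orc4 to Cdc6. Orc6, Dbf4 and Orc1 stood apart from their neighbours, as did Orc5 from Orc3. The deleted means kept this order except that Orc4 (11.5 RPKM) came before Orc3 (10.8 RPKM), with overlapping ranges. So transcripts of subunits of a single complex ranged from 4.90 to 45.4 RPKM. Lengths are those of the annotation, and a gene expressed mainly as a shorter transcript would read too low.

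**Figure D4:**
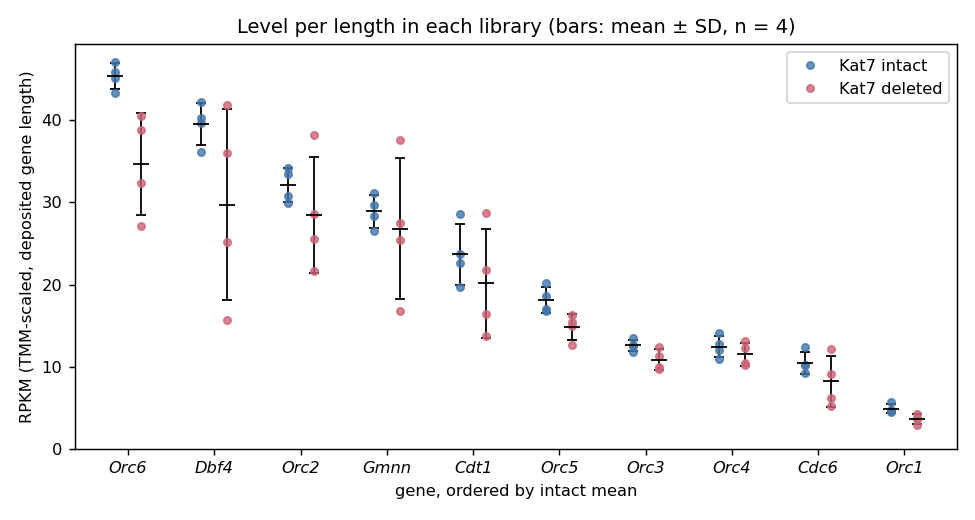
Each point is a library's level in RPKM (y axis) for the gene on the x axis, with mean ± SD bars of 4 libraries per genotype. Orc6 is highest at 45.4 and Orc1 lowest at 4.90 RPKM in the intact cultures, and the deleted points spread more widely for Dbf4, Orc2, Gmnn and Cdt1.

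On the log2 scale the spread between cultures was larger in the deleted genotype for all 10 genes, as it was for 86.6% of all tested genes. The median SD of log2 CPM over the 10 was 0.11 in intact and 0.31 in deleted libraries, against 0.17 and 0.38 over all genes. In deleted replicate 1, 9 of the 10 lay below the intact range and 0 above, in replicate 2 it was 4 below and 3 above, in replicate 3 it was 8 and 0, and in replicate 4 it was 9 and 0. Of all tested genes 35.8%, 35.6%, 32.4% and 37.8% lay below the intact range in these 4 libraries, and 39.4%, 36.8%, 33.9% and 37.1% above it. The median deviation of the 10 from the intact mean was -0.74, 0.08, -0.16 and -0.37 on the log2 scale for the deleted cultures 1 to 4. Replicates 1 and 4 had the highest mitochondrial share, replicate 2 the highest mesenchymal and lowest stem cell marker sums, as given above, and replicates 3 and 4 were littermates, and the part of these in the order was not tested. Deleted replicate 2, with almost no Kat7 reads, had the highest median, and replicate 1, with the most, the lowest. The medians did not follow the Kat7 level in the others. Replicate 4, with the lowest Kat7 level (0.087 CPM), had a median of -0.37, under the -0.16 of replicate 3 (13.9 CPM). The part of the Kat7 level in this order was not tested either.

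**Figure D5:**
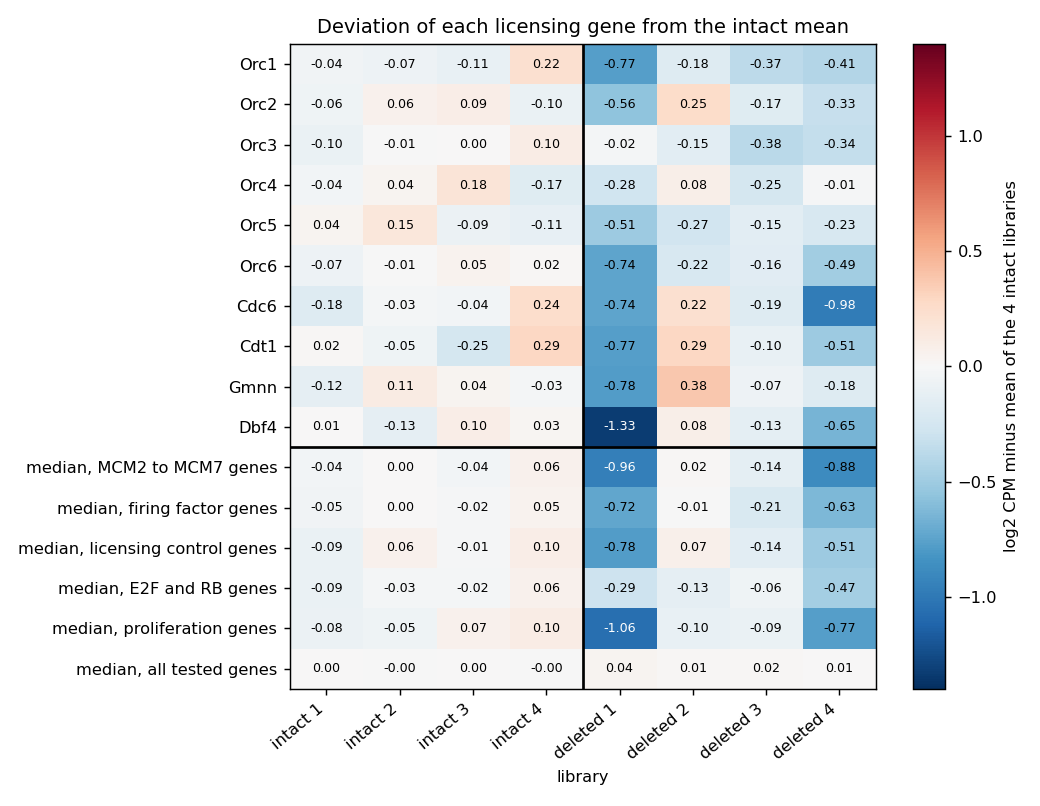
Colour and number give log2 CPM minus the mean of the 4 intact libraries, for each gene and for the median of other gene lists (rows) in each library (columns). Deleted replicates 1 and 4 are low for most licensing genes and for MCM and proliferation genes, while the median of all tested genes stays between 0.00 and 0.04.

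Other gene lists of the pathway also had their lowest medians in deleted replicates 1 and 4, though not all in the same order. For the 13 E2F and RB genes the median deviation was -0.29, -0.13, -0.06 and -0.47 (log2) in deleted cultures 1 to 4. The median deviation from the intact mean of the 6 MCM ring genes was -0.96, 0.02, -0.14 and -0.88 (log2) across the deleted cultures, and that of 10 proliferation genes was -1.06, -0.10, -0.09 and -0.77. Of the MCM genes 0 of 6 were called by edgeR, against 7.90% of all genes tested, with a median log2 fold change of -0.43. In lists this short a count of 0 lies near that share. Mcm6, the most abundant, stood at 302.7 to 340.1 CPM with Kat7 intact, against 157, 291, 260 and 149 CPM without it (-0.58 ± 0.23; edgeR adjusted p = 0.149). Among 18 tested firing factors 0 were called and 15 lay below 0 (median -0.38), with Topbp1, a scaffold that activates the helicase, at -0.35 ± 0.19 (edgeR adjusted p = 0.284). Of the 11 tested genes that control licensing 0 were called (median -0.35), among them Ddb1, an adaptor of the ubiquitin ligase that destroys CDT1, at 0.07 ± 0.19, whose sign changed with scaling by totals. Of 11 genes of origin chromatin 0 were called (median -0.12), with the remodeller subunit gene Baz1b at 0.04 ± 0.16, whose sign did too, and of the 10 proliferation genes 0 were called (median -0.44), with Top2a at -0.33 ± 0.29 (adjusted p = 0.515). Unadjusted p under 0.05 on the lower side was met by 1 MCM gene, 7 firing factors, 3 control genes, 1 chromatin gene and 4 proliferation genes. DESeq2, which called 16.3% of all genes, called 4 of 18 firing factors, 1 of 10 proliferation genes and 0 of the MCM, control or chromatin genes. Leaving out replicate 2 of the deleted group, edgeR called 15.8% of all genes tested, and 1 of 6 MCM genes, Mcm6 (-0.77, adjusted p = 0.0411), 5 firing factors, 3 control genes, 3 chromatin genes, 1 of 10 proliferation genes and 0 of the 10 licensing genes.

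Tfdp1, which encodes DP1, a partner with which many E2F factors bind DNA, was the single called gene among 13 of the E2F and RB list, where DESeq2 called 3. Over all tested genes edgeR called 7.90% and DESeq2 16.3%, so the edgeR count of this list lies near that share. Tfdp2, also of the list, had a log2 fold change of 0.10 (edgeR adjusted p = 0.716). The Tfdp1 level was 113, 124, 133 and 128 CPM in intact replicates 1 to 4, against 64.3, 84.8, 92.6 and 69.0 CPM without Kat7, with no overlap. Its log2 fold change was -0.68 ± 0.14 (edgeR adjusted p = 0.0273). The call held without deleted replicates 1 and 4 (-0.51, adjusted p = 0.0349). It ended without any 1 intact library or deleted replicate 4 (up to 0.0912), with litter as a random block (0.0604), with littermates summed (0.0872) and with scaling by totals alone (0.0529). In the list of KAT7 and its partners Jade2, which encodes a scaffold of the acetyltransferase complex, was the single called gene of 10, again near the share of all genes. It stood at 4.18 ± 0.20 CPM in intact and 14.6 ± 6.49 CPM in deleted cultures (SD, n = 4). That was a 3.47-fold higher level (95% interval 2.09 to 5.77, edgeR adjusted p = 0.0166). The Jade2 call ended in 7 of 22 alternatives, among them leaving out any 1 intact library and summing littermates (up to 0.0903), and DESeq2 called 2 genes of that list.

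The nearest member by profile (root mean square difference of log2 CPM, each gene centred on its intact mean, over 8 libraries) was Orc6 for Orc1 and Orc1 for Orc6, at 0.12. Cdc6 and Cdt1 were nearest to each other at 0.20, and Orc2 and Gmnn at 0.12. Orc4 was nearest to Orc2 (0.17), Orc5 to Orc6 (0.16), Orc3 to Orc4 (0.21) and Dbf4 to Orc6 (0.25), so Dbf4 was the farthest from any other member. Among 9218 genes at 10 CPM or more, those nearest to Orc1 were Qtrt1, Taf5l, Cpsf6, Nab1 and Msh6, at 0.09 to 0.10. Nearest to Cdc6 were Ints7, Wdr76, Smc6, Ctdspl2 and Spin4, at 0.10 to 0.12.

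Some counts could include reads of overlapping genes, since the strand setting is not given in the sources used here. In the GENCODE M21 annotation 1150 exonic bases of Orc2 (29.8%) lie over exons of Nif3l1 on the opposite strand, and Nif3l1 was called lower (log2 fold change -0.46, edgeR adjusted p = 0.0404; up to 0.147 over the alternatives). Orc1 shares 376 exonic bases (10.8%) with the noncoding Gm12743. Orc4 shares 446 with Acvr2a (-0.41, adjusted p = 0.0511) and 136 with Mbd5, which was called higher (0.53, adjusted p = 0.0322). Orc6 shares 171 with Vps35 (-0.03, adjusted p = 0.930), and Orc5 90 with the pseudogene Gm15421 (-0.10, adjusted p = 0.872). Cdc6, Cdt1, Gmnn, Orc3 and Dbf4 share none.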

How the data were processed

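The authors deposited raw read counts per Entrez gene for 8 libraries, with gene lengths, from 100 bp single-end reads of polyadenylated RNA, per the labels' protocols and file headers. CASAVA 1.8.2, featureCounts and mm10 are named in the submitters' processing notes; the aligner and strand setting are not given in the sources used here. Symbols came from RefSeq GRCm38.p6 by identifier (25275 matched). The test was that of edgeR 4.0.16, run in R 4.3.3 (filterByExpr at a minimum count of 10, TMM, robust quasi-likelihood F test, no covariate, Benjamini-Hochberg over 13498 genes, called under 0.05). Errors after ± on log2 fold changes are approximate standard errors (the absolute value over the square root of F), and intervals use the same error with the t distribution at the test's degrees of freedom. Log2 CPM used a prior count of 2, and ratios 0.5 added counts. Alternatives used DESeq2 1.42.0 and limma 3.58.1. The procedure was run on simulated data with the same spread in both groups, unlike the data here, and with larger changes than those fitted for the 10 genes. How often it would call changes as small as theirs was not tested. Named genes were the 10 members, Kat7, Cdc7, up to 4 called genes of each pathway list or its most abundant gene by mean CPM, overlapping genes and nearest profiles. Members and lists were chosen with earlier results of these data known. Dbf4b and Hbb-bt were not analysed here.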

Additional observations from a re-analysis of the deposited data

How the results depend on the processing

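Of the 10 licensing genes 0 were called in any of 22 alternatives (adjusted p 0.0672 to 0.996), and 7 to 10 had a fitted value below 0, the lowest count coming without deleted replicates 1 and 4. The non-overlapping count of 3 was 3 or 4 with RLE scaling, with totals alone and without a deleted pair, alternatives added after the values were seen. Of 220 member values 6 changed sign. Without deleted replicates 1 and 4 Orc2 was 0.033, Cdt1 0.070, Gmnn 0.15 and Top2a 0.10. Without deleted replicates 1 and 3, the pair with Kat7 reads, Orc4 was 0.025, Gmnn 0.12 and Baz1b -0.045. Cdc7, at 0.00, turned to -0.015 with RLE scaling, -0.035 with upper quartile scaling, -0.13 with totals alone, -0.052 with totals without mitochondrial transcripts, -0.031 with no filter, -0.015 with DESeq2, -0.049 and -0.0088 with limma-voom without and with weights, -0.083 with litter as a random block and -0.062 with littermates summed. With totals alone Ddb1 was -0.046 and Baz1b -0.075, and with totals without mitochondrial transcripts Baz1b was -0.018. With 1 library left out Gmnn ran from -0.32 to 0.058, Cdc7 from -0.12 to 0.16, Ddb1 from -0.12 to 0.16 and Baz1b from -0.060 to 0.15. Leaving out 1 library gave differences of the log2 ratio of Dbf4 to Cdc7 from -0.61 to -0.33, of Orc1 to Orc2 from -0.30 to -0.13 and of Cdt1 to Gmnn from -0.21 to -0.0054, with an exact permutation p of 0.0286 for Dbf4 to Cdc7 without deleted replicate 3. The smallest p possible was 0.0667 without a deleted pair and 0.1 with littermates summed, so these could not pass. The 4 same-numbered pairs of libraries had positive correlations of their deviations (r = 0.0961 to 0.331 over genes), while 10 of the 12 other pairs were below 0 (-0.27 to 0.251). Deviations were taken from each group's own mean, so positive same-numbered pairs by themselves push the other pairs below 0. The other pairs are therefore not separate evidence of pairing. As 1 of the 4 was under 0.1, and deleted replicate 1 correlated best with intact replicate 3, the numbers were not taken as pairs. With the replicate block 0 licensing genes were called, all genes called went from 1066 to 319, Cdc7 was -0.038, the Tfdp1 and Jade2 calls ended (adjusted p = 0.0564 and 0.0585), and the 3 ratios had an exact p of 0.125 to 0.75, where 0.125 is the smallest that 4 pairs allow. All genes called were 673 with totals alone, 2200 with DESeq2, 2283 with weights, 414 with litter as a random block, 193 with littermates summed, 189 to 2182 with 1 library left out and 2299 without deleted replicates 1 and 3.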
